A study of Mus musculus with 16 samples.

Results

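The Ifi200 cluster on mouse chromosome 1 was described here by the chromatin accessibility of its genes, as measured by ATAC-Seq, in which a transposase inserts adapters into open DNA. Its 10 listed members were Aim2, Mnda, Mndal, Ifi203, Ifi204, Ifi205, Ifi207, Ifi208, Ifi209 and Ifi213, which are neighbors. The rule that took its sites used position and no measured value, although the cluster was picked with earlier results of these data known. The peaks counted were those from 100 kb before to 100 kb past the span of the members, chr1:173250879-174131810 (mm10). Overlapping peaks (1 bp or more, over all libraries) were joined to sites, and the window held 45 of the 89975 sites of the genome, 39 of them inside the span and 6 in the flanks. Sites were numbered 1 to 45 in genome order. The annotation was GENCODE M21, which carries Mnda under the symbol Ifi211.

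The cells were mouse fetal liver hematopoietic progenitors immortalized with an estrogen-dependent HoxB8 and grown with β-estradiol. hi-77+/+ cells had the -77 enhancer of Gata2 and hi-77-/- cells lacked it on both alleles. hi-77+/+ cells were infected with an empty retrovirus (hi-77+/+ empty), and hi-77-/- cells with an empty retrovirus (hi-77-/- empty), a retrovirus for GATA2 (hi-77-/- GATA2) or a retrovirus for a GATA2 disease variant with 9 amino acids inserted between its zinc fingers (hi-77-/- 9aa-Ins), in each case for 3 d. Each group had 4 libraries of sorted cells, numbered as replicates in the labels. The study describes those of the hi-77-/- groups as biological replicates, and its ATAC-Seq methods do not mention the hi-77+/+ empty libraries. Only the genotype is labelled and not the line, so an effect of the deletion and a difference between cell lines cannot be told apart. Below, "with the deletion" names the comparison of hi-77-/- empty with hi-77+/+ empty and no cause. The age of the embryos was not given in the labels used here.

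The Ifi200 genes encode the PYHIN proteins, which usually pair an N-terminal pyrin domain with a HIN domain that binds DNA. AIM2 binds DNA in the cytosol and assembles an inflammasome with the adaptor ASC (Pycard) and caspase-1, which matures IL-1β and IL-18 and cleaves gasdermin D. Other members, among them IFI204, have been tied to interferon induction through STING, and several members are themselves interferon-induced. The cluster expanded by duplication in the mouse, so its genes share long stretches of sequence. GATA2 is a transcription factor of stem and progenitor cells, and the -77 element is one of the distal enhancers that maintain its expression in myeloid progenitors.

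The sequences below are those on which the results turn. The promoter of Aim2 (chr1:173420354-173420570, plus strand, from the RefSeq promoter table on GRCm38.p6, cut before the annotated UTR) lies in the site that differed most between genotypes. Capitals mark the PU.1 letters searched, GAGGAAGT, and a GATA motif, TGATAG.
Aim2 promoter: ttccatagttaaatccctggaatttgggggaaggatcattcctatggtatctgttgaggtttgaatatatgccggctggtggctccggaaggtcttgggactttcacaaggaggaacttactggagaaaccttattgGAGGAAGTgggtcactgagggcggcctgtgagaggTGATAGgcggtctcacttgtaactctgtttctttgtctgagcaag
Sites 21, 24, 25 and 27 are copies of a DNA element that lies upstream of Ifi206, Ifi214, Ifi209 and Ifi208, and 3 of the 4 were higher with the deletion and lower with GATA2. The stretches shown are 200 bases of mm10, read so that all run in the same direction. They are chr1:173658109-173658308 on the plus strand for site 27, chr1:173622229-173622428 on the minus strand for site 25, chr1:173550862-173551061 on the plus strand for site 24 and chr1:173508756-173508955 on the minus strand for site 21. Capitals mark a match to the core of the interferon-stimulated response element, GAAANNGAA, on the opposite strand. Each of the 4 stretches also holds 1 match to the EBF1 letters searched, CCCNNGGG, which is not marked.
Site 27: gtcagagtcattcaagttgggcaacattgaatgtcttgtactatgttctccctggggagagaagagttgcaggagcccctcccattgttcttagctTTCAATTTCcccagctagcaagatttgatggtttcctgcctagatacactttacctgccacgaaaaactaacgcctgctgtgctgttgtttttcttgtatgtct
Site 25: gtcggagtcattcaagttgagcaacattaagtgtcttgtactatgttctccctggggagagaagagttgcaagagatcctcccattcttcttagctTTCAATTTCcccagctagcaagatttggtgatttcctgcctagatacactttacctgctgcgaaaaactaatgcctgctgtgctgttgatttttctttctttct
Site 24: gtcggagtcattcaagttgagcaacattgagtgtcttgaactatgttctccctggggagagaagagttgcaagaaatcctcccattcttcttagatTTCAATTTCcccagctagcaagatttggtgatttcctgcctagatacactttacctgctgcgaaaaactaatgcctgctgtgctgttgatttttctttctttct
Site 21: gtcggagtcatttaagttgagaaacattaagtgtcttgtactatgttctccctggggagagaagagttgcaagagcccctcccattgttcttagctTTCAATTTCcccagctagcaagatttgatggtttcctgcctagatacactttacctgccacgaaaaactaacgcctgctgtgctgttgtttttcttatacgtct
Site 19, in a coding exon of Aim2, and site 29, in an exon of the pseudogene Gm7871, are also copies of each other. They are shown because their scores followed the same pattern. No motif letters are marked in them, although the stretch of site 29 holds 1 GATA motif. The stretches are chr1:173461858-173462057 on the plus strand and chr1:173715510-173715709 on the minus strand.
Site 19: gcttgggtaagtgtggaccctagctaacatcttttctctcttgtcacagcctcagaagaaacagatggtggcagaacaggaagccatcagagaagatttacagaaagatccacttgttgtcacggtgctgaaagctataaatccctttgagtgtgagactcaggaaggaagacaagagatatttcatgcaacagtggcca
Site 29: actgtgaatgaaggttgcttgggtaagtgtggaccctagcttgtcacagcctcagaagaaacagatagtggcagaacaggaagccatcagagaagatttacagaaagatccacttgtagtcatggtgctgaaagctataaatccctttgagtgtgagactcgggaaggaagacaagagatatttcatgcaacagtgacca

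All values below are rank scores. The deposited lists held 50195 to 112267 peaks per library, and the 49000 most significant of each were kept so that long lists did not gain sites. The rank score of a site in a library is the percent of that library's kept peaks that were no more significant than its best peak there. A score of 100 is the strongest peak and 0 is no kept peak. It is a position within a library and not an amount of signal. The lists hold no read totals, so the depth is unknown and a score of 0 does not show that a site was closed. A site was tested where at least 4 of the 16 libraries had a peak, with limma over all 56898 such sites and Benjamini-Hochberg adjustment, and was called at an adjusted p under 0.05. Of the 45 cluster sites, 34 passed this filter and 11 did not. A second rule, for all sites, asked for a peak in 4 of 4 libraries of a group and in 0 of 4 of the other. The comparisons of hi-77-/- GATA2, hi-77-/- 9aa-Ins and hi-77+/+ empty with hi-77-/- empty share the hi-77-/- empty libraries, so their values are given side by side only.

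The cells had peaks at the starts of progenitor genes. Of 10 progenitor markers, 9 had a promoter peak in all 4 hi-77+/+ empty libraries, and 10 had it in all 4 libraries of each other group. Mpo was the exception, with a peak in 3 of 4 hi-77+/+ empty libraries. Of the markers of other cells, Alb, Ttr, Apoa1 and Hnf4a (hepatocyte), Cdh5 and Tek (endothelial) and Cd3e and Cd3g (T cell) had none in any library. Of the same lists, Afp had one in 1, 4, 3 and 4 libraries of hi-77+/+ empty, hi-77-/- empty, GATA2 and 9aa-Ins, Pecam1 in 3, 4, 4 and 4, and Lck in all 16. Peaks covered 1196 to 1414 bp of the 2 kb from 76 to 78 kb upstream of Gata2 in hi-77+/+ empty libraries. In hi-77-/- libraries they covered 0 bp in replicates 1 to 3 of each group, but 609, 246 and 394 bp in replicate 4 with empty vector, GATA2 and 9aa-Ins. These 3 libraries thus had a peak in the window around an element that their label gives as deleted, and whether the peaks lie on deleted bases was not tested. Peaks covered 39.0% to 49.0% of the Gata2 coding bases with GATA2 and 89.9% to 99.6% with 9aa-Ins, against 7.64% to 8.75% in hi-77-/- empty and 0% in hi-77+/+ empty libraries. The background pileup, an approximate relative depth, was 0.301 to 0.707 in hi-77+/+ empty, 0.378 to 0.666 in hi-77-/- empty, 0.467 to 0.890 in hi-77-/- GATA2 and 0.513 to 0.640 in hi-77-/- 9aa-Ins libraries.

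Accessible sites in the cluster were more numerous in hi-77-/- cells with empty vector or 9aa-Ins than in hi-77+/+ cells or in hi-77-/- cells with GATA2. Of the 45 sites, hi-77+/+ empty libraries had a peak at 15, 17, 17 and 14, a mean of 15.8 ± 1.5 (SD, n = 4). hi-77-/- empty libraries had a peak at 24, 26, 29 and 28, a mean of 26.8 ± 2.22 (SD, n = 4). With GATA2 the libraries had 13, 18, 13 and 19, a mean of 15.8 ± 3.20 (SD, n = 4). With 9aa-Ins they had 30, 31, 30 and 29, a mean of 30.0 ± 0.816 (SD, n = 4). With the lists cut to equal length, the highest hi-77+/+ empty or GATA2 library was thus below the lowest hi-77-/- empty or 9aa-Ins library. The GATA2 libraries with 13 sites had 50195 and 54086 deposited peaks, and those with 18 and 19 sites had 78185 and 73026. The weakest kept peak had a -log10 p of 8.34 to 9.7 in hi-77+/+ empty and 7.38 to 8.13 in hi-77-/- empty libraries. It was 5.35 to 7.43 with GATA2 and 8.75 to 11.7 with 9aa-Ins. The part of these differences in the counts of sites was not tested. With all deposited peaks the genotypes overlapped, with 21 to 37 sites (25.5 ± 7.68, SD, n = 4) in hi-77+/+ empty and 29 to 36 (31.8 ± 3.1, SD, n = 4) in hi-77-/- empty libraries. The kept peaks of the window covered 3908 ± 576 bp in hi-77+/+ empty, 7678 ± 772 bp in hi-77-/- empty, 3566 ± 1095 bp in hi-77-/- GATA2 and 10300 ± 955 bp in hi-77-/- 9aa-Ins libraries (SD, n = 4 each). Within 5 Mb of the window, with the window left out, the number of kept peaks overlapped between the groups. It was 238 to 250 in hi-77+/+ empty and 249 to 262 in hi-77-/- empty libraries. With GATA2 it was 232 to 261 and with 9aa-Ins 237 to 253. The mean share of kept peaks on chromosome 1 was 6.39%, 6.85%, 6.37% and 6.6% in the same order of groups. The median rank score of peaks within 5 Mb, a measure unlike the counts of sites, was 55.2 to 56.5 in hi-77+/+ empty and 43.5 to 48.1 in hi-77-/- empty libraries. It was 48.3 to 55.9 in hi-77-/- GATA2 and 46.7 to 53.1 in hi-77-/- 9aa-Ins libraries.

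**Figure D1:**
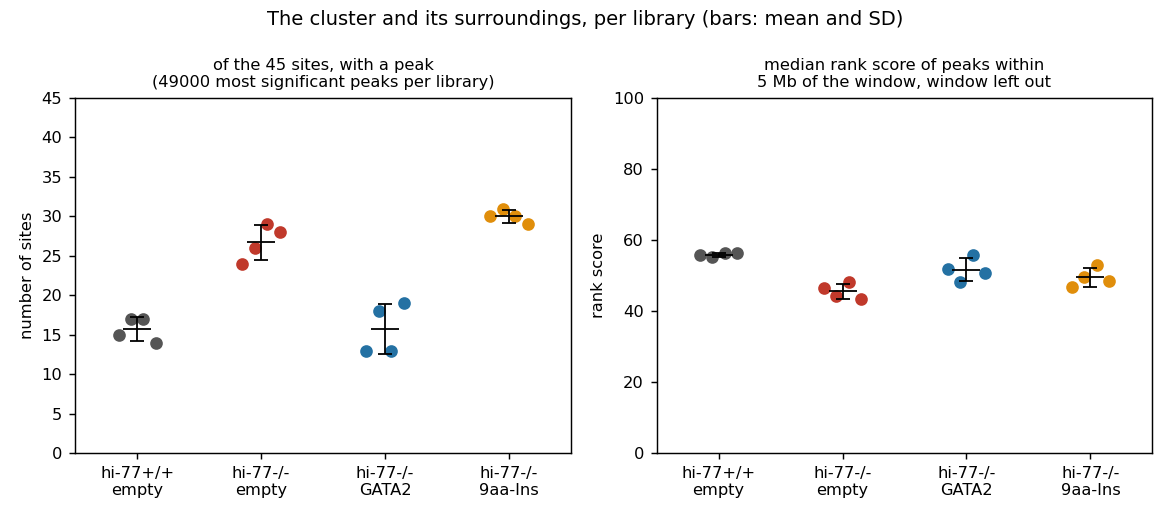
Left, the number of the 45 cluster sites with a kept peak in each library. Right, the median rank score of kept peaks within 5 Mb of the window. Points are libraries, and bars are the mean and SD of 4. On the left, the hi-77-/- libraries with empty vector or 9aa-Ins lie at 24 to 31 sites and the other groups at 13 to 19. On the right, hi-77+/+ empty libraries have the highest mean.

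In the map of the cluster, accessible sites were spread over the whole span and not gathered at gene starts. Of the 45 sites, 7 lay within 1 kb of a start of a member, and these belonged to Aim2, Ifi204, Mnda and Ifi209. No start of Ifi213, Ifi208, Ifi207, Mndal, Ifi203 or Ifi205 had a kept peak within 1 kb in any library. The duplicated sequence limits what can be seen, because the authors kept reads that aligned to a unique place. Of the window's 31-base words, 66.2% occur once in the genome. Within 1 kb of the starts this share was 38.3% for Ifi203, 49.9% for Mndal, 51.7% for Ifi204, 52.0% for Mnda, 58.7% for Ifi208, 59.1% for Ifi209 and 69.1% for Ifi213. It was 95.7% for Ifi205, 96.5% for Aim2 and 98.2% for Ifi207, so Ifi205 and Ifi207 lacked kept peaks at starts that are nearly all unique. In the full lists, an Ifi207 start had a peak in 1 of 4 hi-77-/- empty and 3 of 4 hi-77-/- 9aa-Ins libraries. The full lists gave none at the starts of Ifi213, Ifi208, Ifi203 and Ifi205.

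**Figure D2:**
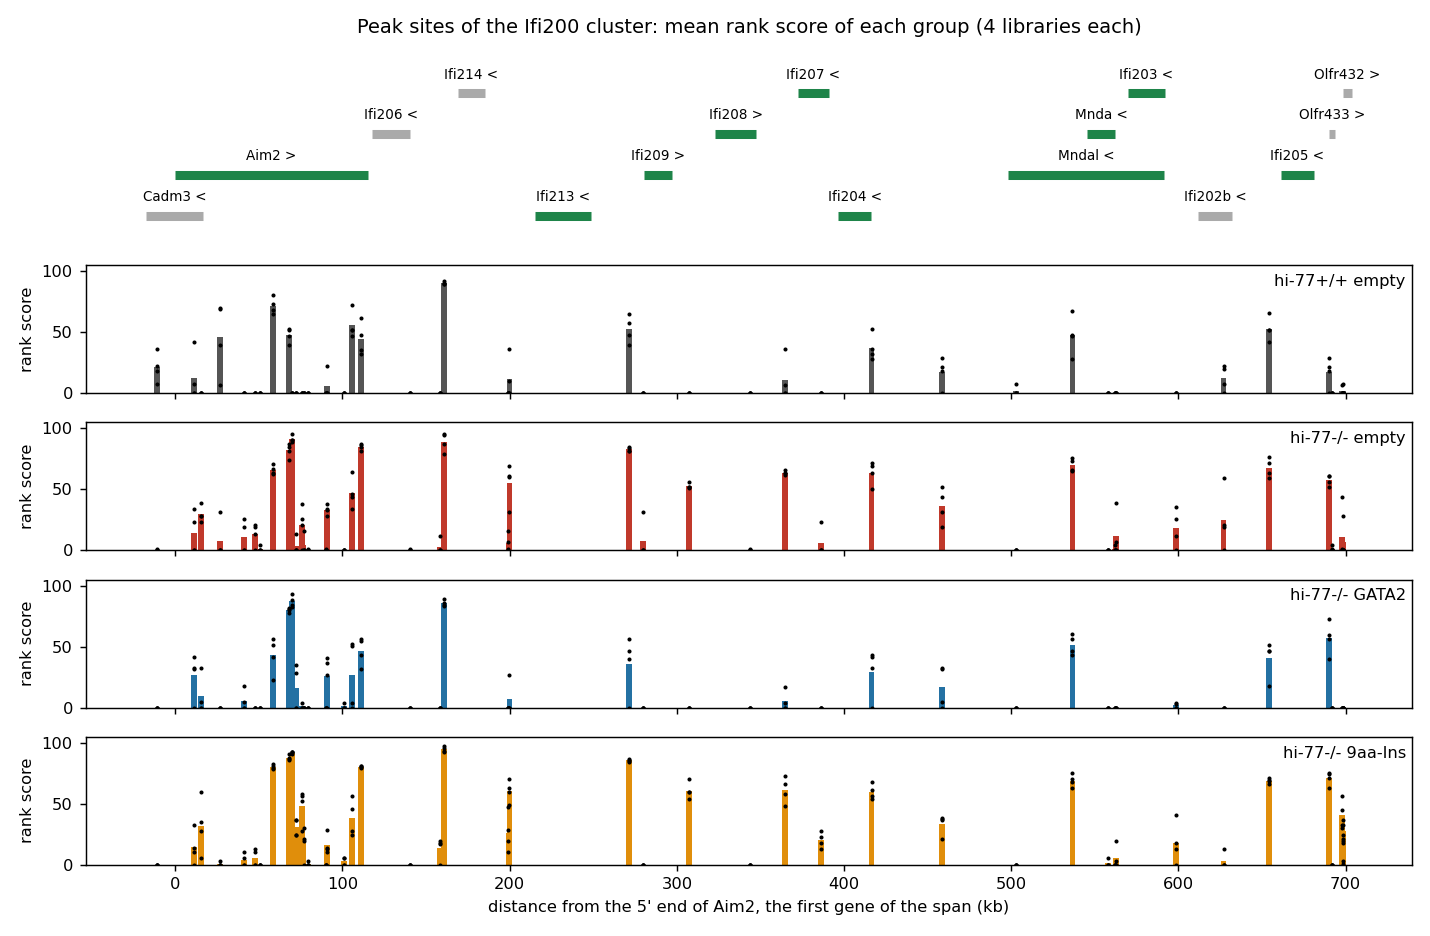
Genes (top, members in green, other genes in gray, with the direction of transcription) and the mean rank score of each site (bars, 4 libraries each) and of each library (points) against the distance from the left end of Aim2 in kb. The bar of site 10, at the main Aim2 start, is missing in the hi-77+/+ empty panel only, where the nearby site 9 has a bar. The bars around Ifi209, Ifi208 and Ifi207 are high in hi-77-/- cells with empty vector or 9aa-Ins and lower or missing in the other groups.

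With the -77 deletion, cluster sites changed mostly upward. Of 34 tested sites, 14 (41.2%) had a higher rank score in hi-77-/- empty than in hi-77+/+ empty cells and 2 (5.88%) a lower one, where limma called 21.3% of all tested sites higher and 19.1% lower. With all deposited peaks it was 9 of 42 sites (21.4%, against 9.02% of all tested sites) and with the 25000 most significant 9 of 14 (64.3%, against 23.4%). By presence, 3 of 45 sites were present in all 4 hi-77-/- empty and no hi-77+/+ empty libraries (3.6% of all sites), and 0 the reverse (2.11% of all sites). The 3 were site 3, site 10 and site 27. The median difference over the 45 sites was 6.08 points, against 0 over all 89975 sites. The comparison of GATA2 with empty vector shares the hi-77-/- empty libraries with opposite sign, so its values are given beside these and not as a separate reversal. limma called 8 cluster sites (23.5%) lower with GATA2 than with empty vector, where it called 12.5% of all tested sites lower. It called 0 higher, also at an unadjusted p under 0.05 and by the exact permutation test, where 8.52% of all tested sites were higher. By presence 1 site was lost (2.28% of all sites) and 0 were gained (1.71%). The median difference was -6.08 points.

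No such decrease was called with 9aa-Ins. Against hi-77-/- empty, limma called 3 cluster sites (8.82%) higher, where 5.33% of all tested sites were higher. It called 0 lower, where 1.78% of all tested sites were lower, and 1 was lower at an unadjusted p under 0.05 by limma and 1 by the exact permutation test. The count of 3 fell to 1 without hi-77-/- empty replicate 1, 2 or 4 or without hi-77-/- 9aa-Ins replicate 2. By presence 1 site was gained (1.38% of all sites) and 0 were lost (0.157%). The median difference over the 45 sites was 0. Tested directly against GATA2, 9aa-Ins gave a higher rank score at 16 of 34 sites (47.1%), where limma called 16.1% of all tested sites. With all deposited peaks, of which the 9aa-Ins lists hold more than the GATA2 lists on average, it was 30 of 42 sites (71.4%), against 28.8% of all tested sites. It gave a lower one at 0, also at an unadjusted p under 0.05 and by the exact permutation test, where 8.22% of all tested sites were lower. By presence 6 of 45 sites had a peak in 4 of 4 hi-77-/- 9aa-Ins and 0 of 4 hi-77-/- GATA2 libraries (2.98% of all sites), and 0 the reverse (1.46%). The median difference was 11.2 points. Of the 16 sites, sites 13 and 21 had peaks in 3 hi-77-/- 9aa-Ins libraries and 1 hi-77-/- empty library, and site 30 in 4 and 1. These sites passed the filter mostly through the group where they are high, so they lend the count little. With the filter at 1 library, 16 of 45 sites (35.6%) were higher with 9aa-Ins than with GATA2, against 9.43% of all sites. In direction alone, 36 of 45 sites had a higher mean and 6 a lower mean with the deletion. With GATA2, 3 were higher and 39 lower, and with 9aa-Ins 22 were higher and 22 lower. These counts are a description and no result about the cluster, since the shares over all sites were not taken. Sites were joined from the peaks of all libraries, and 8 of the 45 had a peak in only 1. Such a site in hi-77-/- empty counts as both higher with the deletion and lower with GATA2. Without the 3 hi-77-/- libraries that had a peak in the -77 window, limma called 12 sites higher and 2 lower with the deletion, 8 lower with GATA2, 1 higher with 9aa-Ins than with empty vector and 15 higher with 9aa-Ins than with GATA2.

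**Figure D3:**
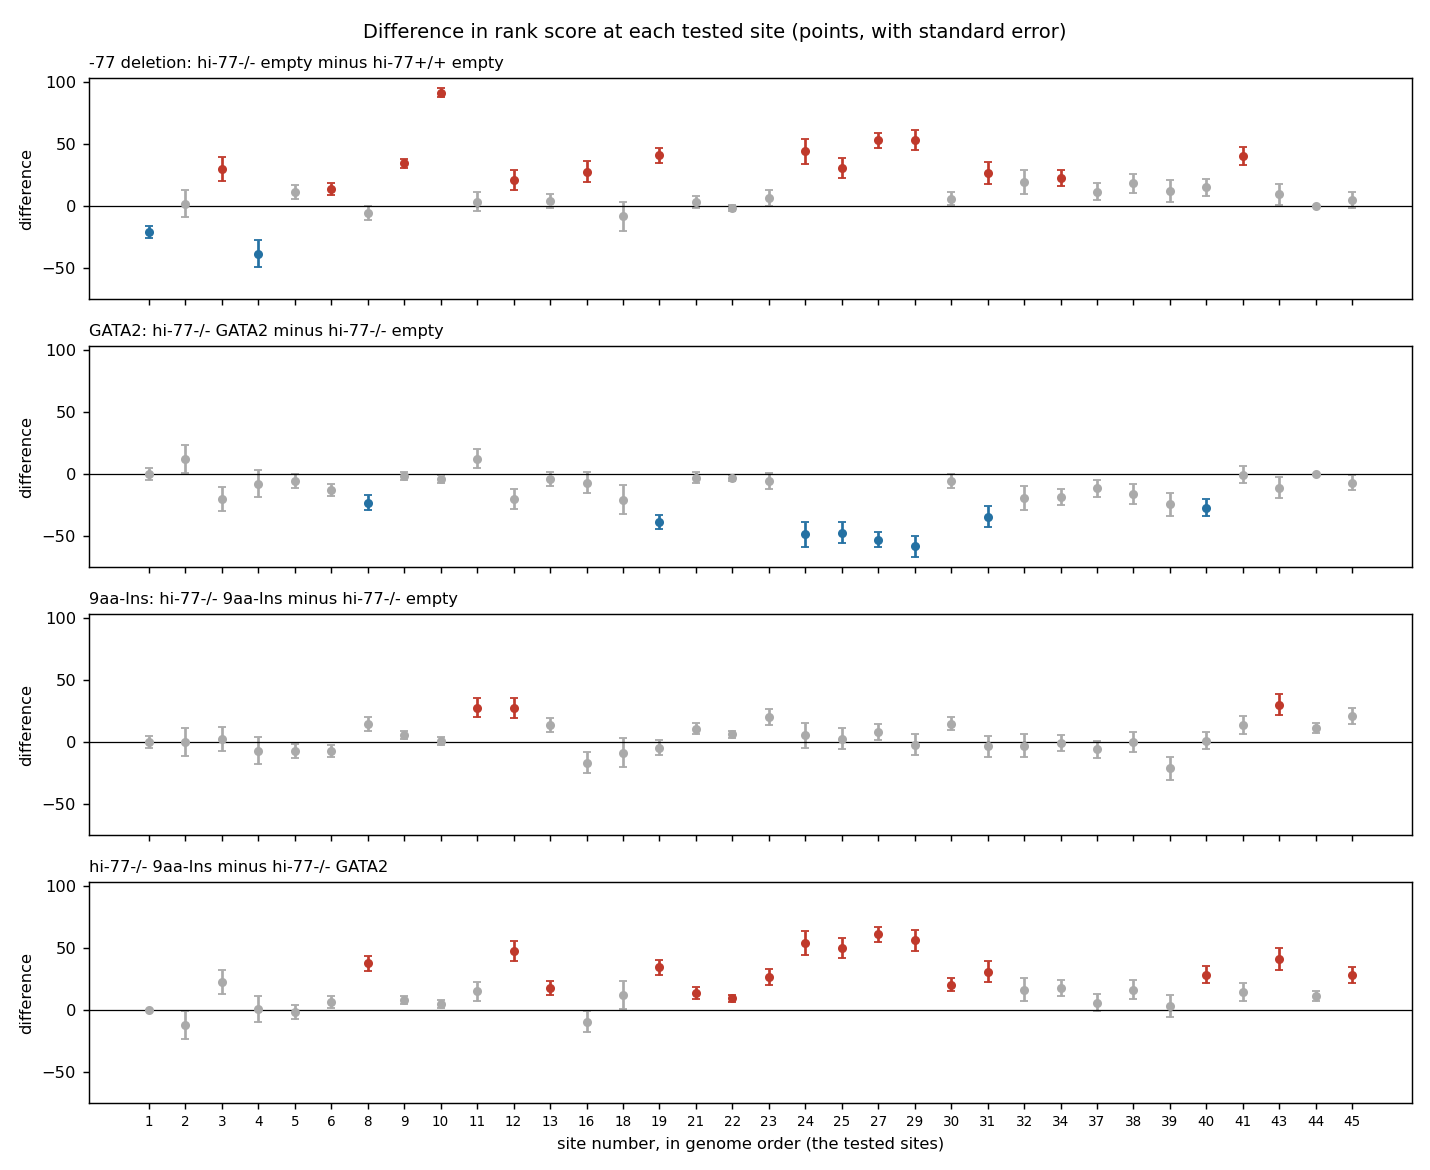
Difference in rank score (points, y axis, with SE) at each of the 34 tested sites (x axis, site number in genome order) in the 4 comparisons. Red marks sites that limma called higher, blue lower and gray not called. The 14 red and 2 blue points of the deletion, the 8 blue points of GATA2, the 3 red points of 9aa-Ins and the 16 red points of 9aa-Ins against GATA2 are shown.

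Aim2, the inflammasome sensor, had the highest promoter scores of the members, and they divided the genotypes. Site 10 (chr1:173420272-173420752) spans the main Aim2 start and its UTR and holds the promoter printed above. hi-77+/+ empty libraries had no kept peak there. The rank scores were 90.2, 90.5, 95.2 and 89.2 in hi-77-/- empty, 84.4, 93.3, 82.3 and 88.0 with GATA2 and 92.3, 92.2, 90.9 and 92.5 with 9aa-Ins. All 12 hi-77-/- libraries were therefore high and did not overlap with hi-77+/+ empty libraries. The difference with the deletion was 91.3 points (SE 3.30, limma adjusted p = 2.44e-13), and this was the largest difference in the cluster. The scores with GATA2 and empty vector overlapped, with a difference of -4.26 points (SE 3.30, limma adjusted p = 0.434). 9aa-Ins differed from empty vector by 0.73 points (SE 3.30, adjusted p = 1.0). In the full lists 1 of 4 hi-77+/+ empty libraries had a peak at this site, so a weak peak was present in that library. In the genome, 763 of 89975 sites (0.848%) had a peak in 0 of 4 hi-77+/+ empty and in 12 of 12 hi-77-/- libraries, and site 10 was the 1 such site in the cluster.

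Site 9 (chr1:173418856-173419401), at an exon of Aim2 and another annotated start, lies just upstream. Its rank scores were 47.1, 52.7, 52.1 and 39.6 in hi-77+/+ empty and 87.5, 81.7, 74.3 and 84.6 in hi-77-/- empty libraries. They were 81.8, 77.7, 81.2 and 80.0 with GATA2 and 90.6, 87.7, 86.2 and 86.4 with 9aa-Ins. Here too the hi-77+/+ empty libraries were below all others, and the GATA2 libraries stayed with the other hi-77-/- libraries. With the deletion the difference was 34.1 points (SE 3.26, limma adjusted p = 2.39e-07). GATA2 differed from empty vector by -1.86 points (SE 3.26, adjusted p = 0.787). Site 18 (chr1:173456410-173456689), in an intron 0.9 kb downstream of another Aim2 start, scored 51.6, 46.9, 72.5 and 51.9 in hi-77+/+ empty and 46.5, 44.2, 64.5 and 34 in hi-77-/- empty libraries. These overlapped, with a difference of -8.41 points (SE 11.5, adjusted p = 0.611). With GATA2 site 18 had 51.8, 3.9, 0 and 50.7 and with 9aa-Ins 56.3, 24.8, 27.4 and 45.6, and no comparison called it.

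In the body of Aim2, site 19 was among the sites that behaved differently from promoter sites 9 and 10. Site 19 (chr1:173461551-173462365), in a coding exon, scored 35.6, 61.9, 47.6 and 31.9 in hi-77+/+ empty and 87.5, 86.6, 81.5 and 84.6 in hi-77-/- empty libraries. It scored 31.8, 42.9, 55.9 and 54.4 with GATA2 and 79.7, 80.4, 81.1 and 80.6 with 9aa-Ins. hi-77-/- empty and 9aa-Ins libraries were thus all above the hi-77+/+ empty and GATA2 libraries. The scores of hi-77-/- empty were 40.8 points above hi-77+/+ empty (SE 5.94, limma adjusted p = 2.40e-05). GATA2 lowered it by 38.8 points (-38.8, SE 5.94, adjusted p = 6.71e-05). 9aa-Ins differed by -4.57 points from empty vector (SE 5.94, adjusted p = 0.838) and 34.2 points above GATA2 (SE 5.94, adjusted p = 2.34e-04).

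Other sites lay upstream of Aim2 starts or in introns. Site 8 (chr1:173409085-173409478), 9.7 kb upstream of the nearest Aim2 start, had a peak in all 16 libraries. It scored 65.3, 80.4, 68.0 and 73.0 in hi-77+/+ empty, 63.7, 71.0, 66.9 and 62.4 in hi-77-/- empty, 22.3, 56.4, 51.7 and 41.2 with GATA2 and 80.6, 82.3, 79.2 and 78.8 with 9aa-Ins. Only the GATA2 libraries fell below the rest at this site. GATA2 lowered it by 23.1 points (-23.1, SE 5.69, limma adjusted p = 0.0055), while the deletion gave -5.67 points (SE 5.69, adjusted p = 0.466). In a fit of only the 8 libraries compared, GATA2 had an adjusted p of 0.0653, and with 50% of the site covered 0.117. Site 12 (chr1:173426340-173426896) scored 0 in all 4 hi-77+/+ empty libraries and 0, 25.5, 38.1 and 20.7 in hi-77-/- empty libraries. It scored 0, 4.0, 0 and 0 with GATA2 and 51.9, 56.3, 27.4 and 57.8 with 9aa-Ins. The 9aa-Ins group had the highest mean, with 1 library below the highest hi-77-/- empty library, and 1 hi-77-/- empty library had no kept peak. 9aa-Ins was 47.4 points above GATA2 (SE 8.00, adjusted p = 1.80e-04). Its differences of 27.3 points from empty vector (adjusted p = 0.0433) and of 21.1 points for the deletion (adjusted p = 0.0419) lost the call when single libraries were left out, and without the 3 libraries with a peak in the -77 window (adjusted p = 0.225 and 0.0825). The former did so without any of the 8 but replicate 3 of either group (adjusted p of up to 0.159), and the latter without any but hi-77-/- empty replicate 1 (up to 0.14).

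At the start of the window, next to Cadm3, a cell adhesion gene that overlaps the longest Aim2 transcripts, sites moved in either direction. Site 3 (chr1:173365844-173366290), in introns of both genes and 1.3 kb inside Cadm3, scored 0 in all 4 hi-77+/+ empty and 27.9, 38.9, 23.5 and 27.9 in hi-77-/- empty libraries. It scored 0, 0, 32.6 and 4.5 with GATA2 and 60.0, 5.7, 27.4 and 34.7 with 9aa-Ins. hi-77-/- empty was 29.6 points above hi-77+/+ empty (SE 9.50, limma adjusted p = 0.018), and the adjusted p became 0.0527 without hi-77-/- empty replicate 2. Site 4 (chr1:173377551-173377777), in an Aim2 intron, went the other way, with 6.5, 68.8, 70.3 and 39.6 in hi-77+/+ empty and 0, 0, 31.5 and 0 in hi-77-/- empty libraries. It had no kept peak with GATA2 and a score of 3.2 in 1 library with 9aa-Ins. The deletion gave -38.4 points (SE 10.7, adjusted p = 0.00758), although the groups overlapped at the lowest hi-77+/+ empty library. In a fit of only these 8 libraries the adjusted p was 0.0895. Site 1, in an intron of Cadm3, was the other site lower with the deletion (-21.0 points, SE 4.89, adjusted p = 0.00192). With GATA2 both sites scored 0 in all 4 libraries.

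**Figure D4:**
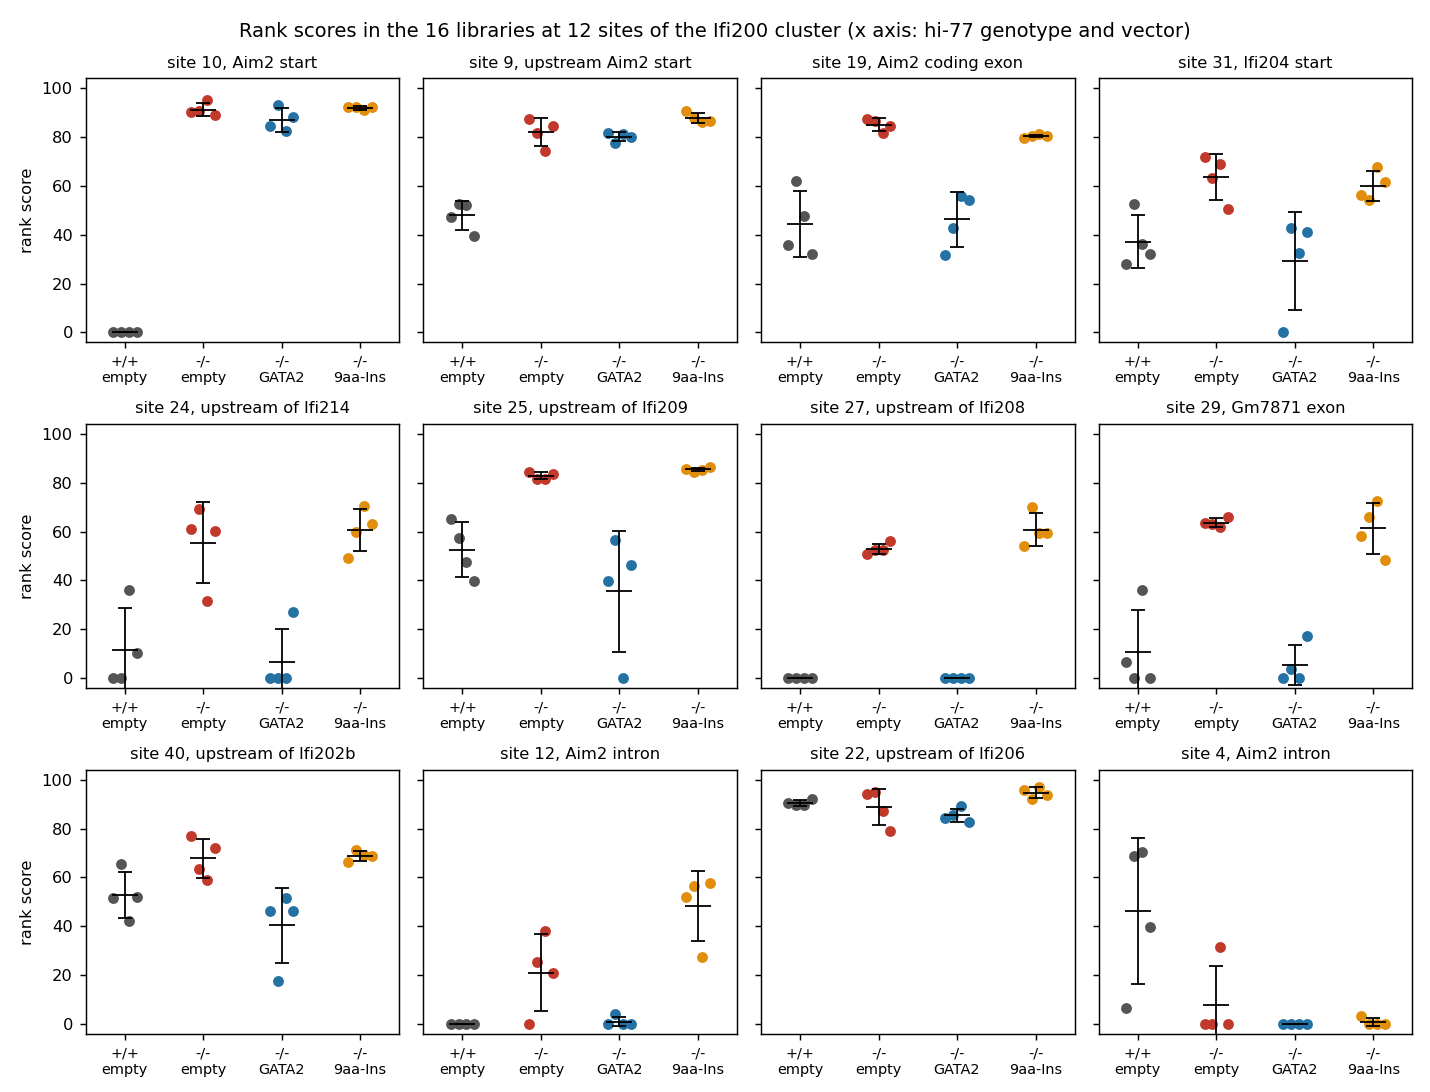
Rank score (y axis) of each library (points) at 12 cluster sites, with the mean and SD of the 4 libraries of each group (black). At sites 9 and 10 the hi-77+/+ empty libraries stand below the 12 others. At sites 19, 24, 25, 27, 29 and 31 the hi-77+/+ empty and GATA2 libraries are both lower than most or all hi-77-/- empty and 9aa-Ins libraries, while site 22 is high in all 16 libraries.

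Ifi204 encodes the PYHIN protein p204, which is often treated as the mouse counterpart of human IFI16, a nuclear and cytosolic DNA sensor. It was the other member with a promoter peak in most libraries. Site 31 (chr1:173766854-173767776), at the Ifi204 start and UTR, scored 28.0, 52.7, 36.1 and 31.9 in hi-77+/+ empty and 71.9, 63.3, 68.9 and 50.4 in hi-77-/- empty libraries. It scored 0, 42.9, 32.6 and 41.2 with GATA2 and 56.3, 54.3, 67.7 and 61.4 with 9aa-Ins. The GATA2 libraries lay below all hi-77-/- empty libraries, and the genotypes overlapped in 1 library each. GATA2 lowered the score by 34.5 points (-34.5, SE 8.61, limma adjusted p = 0.00614), and 9aa-Ins was 30.7 points above GATA2 (SE 8.61, adjusted p = 0.012, and 0.0592 with 200 bp windows on summits). The deletion gave 26.5 points (SE 8.61, adjusted p = 0.0191), which rose to 0.0529 without hi-77+/+ empty replicate 1, 0.0588 without hi-77-/- empty replicate 1 and 0.0502 without hi-77-/- empty replicate 3. With all deposited peaks it was 9.34 points and not called (adjusted p = 0.522). Of the 31-base words of this site, 54.5% are unique.

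Mnda, the myeloid nuclear differentiation antigen, had only weak promoter peaks. Site 36 (chr1:173913018-173913106), at its start, had a peak in 1 library, hi-77-/- empty replicate 2, with a score of 4.3. Site 37 (chr1:173913407-173913675), 0.4 kb upstream, scored 7.2, 38.9, 0 and 0 in hi-77-/- empty and 3.2, 19.3, 0 and 0 with 9aa-Ins, and 0 in the 8 other libraries. Its sequence is 98.9% identical to part of the Ifi204 promoter site over 269 aligned bases, and 25.7% of its 31-base words are unique. No comparison called site 37, with a difference of 11.5 points for the deletion (SE 6.74, limma adjusted p = 0.186). In the full lists a peak lay at an Mnda start in 3 of 4 hi-77+/+ empty, 3 of 4 hi-77-/- empty, 0 of 4 GATA2 and 4 of 4 9aa-Ins libraries.

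Ifi209 is a PYHIN gene that the study displayed as a locus repressed by GATA2, a class it took from RNA-Seq. The lower accessibility with GATA2 that it displayed there came from these same libraries, so the direction here is not independent evidence. The study saw no GATA2 occupancy at this locus and proposes that repression by GATA2 is in part indirect. The promoter of Ifi209 itself showed little. Site 26 (chr1:173630768-173630857), 60 bp before its start, had a score of 31.5 in hi-77-/- empty replicate 3 and 0 in the 15 other libraries. In the full lists 2 of 4 hi-77-/- empty and 3 of 4 9aa-Ins libraries had a peak there, and none of hi-77+/+ empty or GATA2. The strong site of this gene was site 25 (chr1:173622124-173622809), 8.1 kb upstream. It scored 65.3, 57.6, 47.6 and 39.6 in hi-77+/+ empty, 84.5, 81.7, 81.5 and 83.7 in hi-77-/- empty, 39.8, 56.4, 0 and 46.3 with GATA2 and 85.6, 84.6, 85.4 and 86.4 with 9aa-Ins. hi-77-/- empty and 9aa-Ins libraries stood apart from the others without overlap. It was 30.3 points higher with the deletion (SE 8.26, limma adjusted p = 0.00639) and GATA2 lowered it by 47.3 points (-47.3, SE 8.26, adjusted p = 2.64e-04). 9aa-Ins was 49.9 points above GATA2 (SE 8.26, adjusted p = 1.49e-04) and 2.64 points above empty vector (SE 8.26, adjusted p = 0.986). With all deposited peaks the deletion gave 14.6 points, which was not called (adjusted p = 0.274).

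Site 27 (chr1:173657818-173658525), intergenic and 15.2 kb upstream of Ifi208, was the sharpest case of this pattern. It had no kept peak in any hi-77+/+ empty or GATA2 library. It scored 50.9, 52.3, 52.3 and 56.1 in hi-77-/- empty and 54.2, 70.0, 59.5 and 59.6 with 9aa-Ins. hi-77-/- empty was 52.9 points above hi-77+/+ empty (SE 6.15, limma adjusted p = 1.79e-06) and GATA2 gave -52.9 points (adjusted p = 3.06e-06), equal in size because both other groups scored 0. 9aa-Ins was 60.9 points above GATA2 (adjusted p = 9.54e-07). In the full lists 2 of 4 hi-77+/+ empty libraries had a peak there and none of the GATA2 libraries. Its difference with the deletion was 7.70 points when 25000 peaks were kept (adjusted p = 0.245) and 27.1 points when 50% of the site had to be covered (adjusted p = 0.0812), and it then lost its calls. In the genome, 691 sites (0.768%) had this presence in 0, 4, 0 and 4 libraries of hi-77+/+ empty, hi-77-/- empty, GATA2 and 9aa-Ins, and site 27 was the 1 such site in the cluster.

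Site 24 (chr1:173550501-173551015), 14.5 kb upstream of Ifi214 and 29.3 kb downstream of the nearest Ifi213 start, scored 0, 0, 36.1 and 10.2 in hi-77+/+ empty and 61.0, 69.2, 31.5 and 60.4 in hi-77-/- empty libraries. It scored 0, 0, 0 and 27 with GATA2 and 49.4, 60.0, 70.4 and 63.0 with 9aa-Ins. GATA2 libraries were below all hi-77-/- empty libraries, and 1 hi-77+/+ empty library overlapped with hi-77-/- empty. hi-77-/- empty was 43.9 points above hi-77+/+ empty (SE 9.84, limma adjusted p = 0.00148) and GATA2 gave -48.8 points (adjusted p = 0.00103), which with 25000 peaks kept was -21.4 points and not called (adjusted p = 0.0536). 9aa-Ins was 53.9 points above GATA2 (adjusted p = 3.76e-04). Site 21 (chr1:173508767-173509125), 17.7 kb upstream of Ifi206, was the weakest of these copies. It scored 17.4, 19.3, 0 and 17.9 with 9aa-Ins, 12 in hi-77-/- empty replicate 4 and 0 elsewhere, and limma called it higher with 9aa-Ins than with GATA2 (13.7 points, SE 4.61, adjusted p = 0.0347), which it lost without any GATA2 library or 9aa-Ins replicate 1, 2 or 4 (up to 0.0911).

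The 4 copies printed above were 78.6% to 95.3% identical between pairs over 324 to 613 aligned columns, counted over the parts that aligned within the sites. All 4 held the capital letters at the same place of the alignment. Of their 31-base words, 53.8% (site 21), 58.3% (site 24), 53.4% (site 25) and 81.9% (site 27) were unique. Whether the scores of the copies are fully separate measurements was not tested. In the cluster as a whole, 17 of 45 sites fell into 7 groups of sites that shared at least 75% identity over at least 100 aligned columns. Sites 34 and 40 were 99.7% identical, and 16.4% and 3.1% of their words were unique.

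Site 29 (chr1:173715243-173715919), in the pseudogene Gm7871 and 25.8 kb downstream of the start of Ifi207, was the copy of the Aim2 exon site at 89.3% identity over 701 aligned columns. It scored 6.5, 0, 36.1 and 0 in hi-77+/+ empty, 63.7, 63.3, 61.8 and 66.0 in hi-77-/- empty, 0, 3.9, 0 and 17.3 with GATA2 and 58.3, 66.0, 72.7 and 48.5 with 9aa-Ins. The groups did not overlap between hi-77-/- empty or 9aa-Ins on the one side and hi-77+/+ empty or GATA2 on the other. It was 53.1 points higher with the deletion (SE 8.32, limma adjusted p = 5.28e-05), GATA2 lowered it by 58.4 points (-58.4, adjusted p = 3.09e-05) and 9aa-Ins was 56.1 points above GATA2 (adjusted p = 5.03e-05). Of the words of sites 19 and 29, 83.6% and 82.0% were unique.

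For Mndal, Ifi203 and Ifi205 the sites lay between genes or in introns. Site 34 (chr1:173887165-173887815), in an Mndal intron, had a peak in all 16 libraries and was 22.6 points higher with the deletion (SE 6.58, limma adjusted p = 0.00979), which was not called with all deposited peaks (7.69 points, adjusted p = 0.263), with only 8 libraries (adjusted p = 0.0584) or with 50% of the site covered. Its difference with GATA2 was -18.5 points (adjusted p = 0.052). Site 40 (chr1:174004748-174005167), 22 kb upstream of Ifi202b and 26.6 kb downstream of the nearest Ifi205 start, scored 51.6, 65.5, 42.3 and 51.8 in hi-77+/+ empty, 76.8, 63.3, 59.1 and 72.0 in hi-77-/- empty, 46.3, 17.8, 51.7 and 46.3 with GATA2 and 66.3, 71.2, 69.1 and 68.9 with 9aa-Ins. GATA2 libraries were below all hi-77-/- empty libraries. GATA2 lowered it by 27.3 points (-27.3, SE 6.80, adjusted p = 0.00603), and the deletion gave 15 points (SE 6.80, adjusted p = 0.0872). With 50% of the site covered, the GATA2 difference had an adjusted p of 0.216. Near Ifi203, site 38, 6.5 kb upstream of its start, was called in no comparison. Ifi207 had site 30 in an intron, which scored 23.1, 13, 27.4 and 17.9 with 9aa-Ins, 23.5 in hi-77-/- empty replicate 3 and 0 elsewhere, and was higher with 9aa-Ins than with GATA2 (20.4 points, SE 5.36, adjusted p = 0.00766).

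Past Ifi205 the window holds olfactory receptor genes, and their sites moved separately. Site 41 (chr1:174040593-174041230), at the Olfr433 start and UTR, scored 18.5, 21.6, 28.7 and 0 in hi-77+/+ empty, 61.0, 61.0, 52.3 and 56.1 in hi-77-/- empty, 39.8, 59.8, 55.9 and 72.4 with GATA2 and 63.3, 71.2, 75.1 and 74.7 with 9aa-Ins. As at the Aim2 promoter, all hi-77+/+ empty libraries were lowest, and the GATA2 libraries overlapped with hi-77-/- empty. Its score was 40.4 points higher with the deletion (SE 7.12, limma adjusted p = 1.71e-04) and GATA2 gave -0.61 points (SE 7.12, adjusted p = 1.0). With all deposited peaks the deletion gave 16.7 points (adjusted p = 0.0804) and with 25000 peaks 16.9 points (adjusted p = 0.0978), neither called. Site 43 (chr1:174048309-174048601), 0.6 kb before the Olfr432 start, scored 32.6, 56.3, 44.6 and 30.0 with 9aa-Ins, 0, 0, 0.8 and 43.5 in hi-77-/- empty, 6.5 in 1 hi-77+/+ empty library and 0 with GATA2. 9aa-Ins was 40.9 points above GATA2 (SE 8.57, adjusted p = 0.00132). Its 29.8 points above empty vector (adjusted p = 0.0385) lost the call without hi-77-/- empty replicate 1, 2 or 3 or hi-77-/- 9aa-Ins replicate 2 or 3, with adjusted p of up to 0.127. At site 44, 32 bp before the same start, 9aa-Ins libraries scored 3.2, 19.3, 21.1 and 1.0 and all others 0, and limma gave an adjusted p of 0.153 against empty vector. Site 45, just past this start, was 28.0 points higher with 9aa-Ins than with GATA2 (adjusted p = 0.00264).

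Site 22 (chr1:173511502-173512189), intergenic and 20.5 kb upstream of Ifi206, was the strongest site shared by all groups. It scored 90.7, 89.5, 89.5 and 92.3 in hi-77+/+ empty, 94.3, 95.1, 87.1 and 78.9 in hi-77-/- empty, 84.4, 85.7, 89.2 and 82.9 with GATA2 and 96.0, 92.2, 97.2 and 93.6 with 9aa-Ins. It was 9.22 points higher with 9aa-Ins than with GATA2 (SE 2.58, limma adjusted p = 0.0119), and the deletion gave -1.66 points (SE 2.58, adjusted p = 0.662). The other called sites not given above were sites 6, 11, 13, 16 and 23. Sites 6 and 16 were 13.3 and 27.6 points higher with the deletion, which with all deposited peaks was not called at either (adjusted p = 0.312 and 0.196). Site 11 was 27.3 points higher with 9aa-Ins than with empty vector (adjusted p = 0.0316), and lost the call with the replicate block (0.0558), with the filter at 1 library (0.0509) and without hi-77-/- empty replicate 1, 2 or 4 or hi-77-/- 9aa-Ins replicate 1 or 3 (up to 0.0898). Site 6 also lost it without any of the 8 libraries but hi-77-/- empty replicate 2 (up to 0.0951), and site 13 without hi-77-/- 9aa-Ins replicate 2, 3 or 4 (up to 0.0855). Sites 13 and 23 were 17.6 and 26.4 points higher with 9aa-Ins than with GATA2. In all, 26 of the 34 tested sites (76.5%) were called in at least 1 comparison, against 57% of all tested sites.

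**Figure D5:**
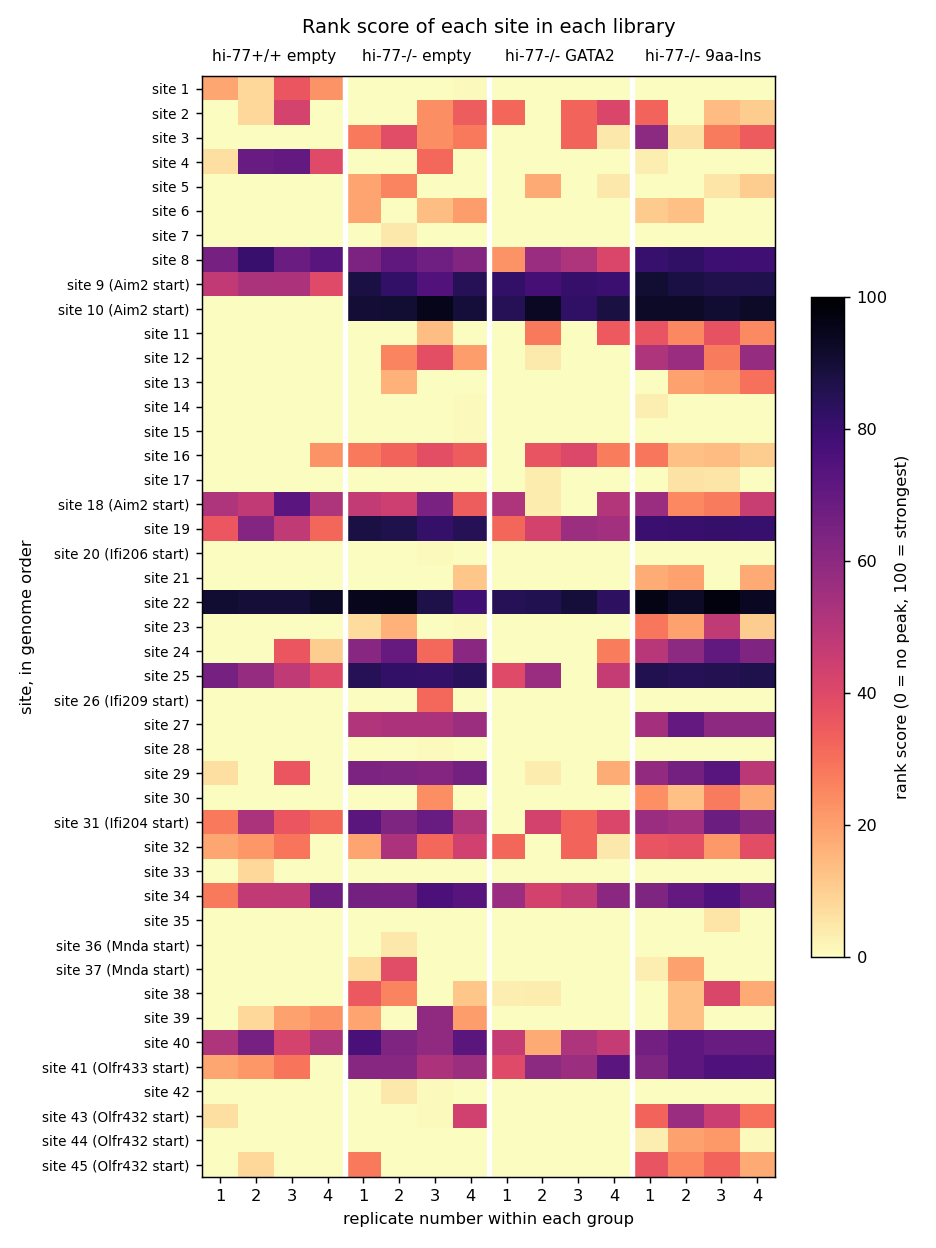
Rank score (color, 0 for no kept peak to 100 for the strongest) of the 45 sites (rows, in genome order, with the gene whose start lies within 1 kb) in the 16 libraries (columns, by group and replicate number). Site 10 is dark in the 12 hi-77-/- libraries and empty in the hi-77+/+ libraries. Sites 24, 25, 27 and 29 are darkest in hi-77-/- empty and 9aa-Ins libraries, and site 22 is dark in all.

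Sequence motifs were not used to choose the members. In the 300 bp at the center of each site, the core of the interferon-stimulated response element (GAAANNGAA, either strand) was present in 13 of 45 cluster sites (28.9%), against 8.71% of all 89975 sites and 8.56% of RefSeq promoters of the same length. GATA motifs (GATA preceded by A or T and followed by A or G, either strand) were present in 19 (42.2%) against 36.4% of all sites. The PU.1 letters (GAGGAAGT) were present in 7 (15.6%) against 8.15%, the EBF1 letters (CCCNNGGG) in 7 (15.6%) against 13.1%, the CEBP letters (TTGCNNCAA) in 3 (6.67%) against 2.5% and the RUNX letters (TGTGGT) in 10 (22.2%) against 30.6%. The letters of these motifs can overlap each other, and the cluster's copies count separately, so these shares are descriptions without a test. Median GC content was 43.3% in the cluster sites and 50% in all sites. Of the 10 members, 9 were matched in the RefSeq promoter table. Of all 32851 promoters of that table on the standard chromosomes, 3.2% held the PU.1 letters and 29.8% a GATA motif, both of which lie in the Aim2 stretch printed above.

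A list of 26 genes of DNA sensing, interferon signaling and the inflammasome was read at the strongest site within 1 kb of a start, and 21 had a tested site. With the deletion 7 were called higher and 5 lower, with GATA2 1 higher and 3 lower, with 9aa-Ins against empty vector 0 in either direction, and with 9aa-Ins against GATA2 3 in each. The shares of all tested sites called higher and lower were 21.3% and 19.1%, 8.52% and 12.5%, 5.33% and 1.78%, and 16.1% and 8.22%, so these counts are near the background and are no result about the list. The medians of the 21 differences were 4.12, -1.07, -0.09 and 6.48 points. The 3 genes lower with GATA2 were Il18, the cytokine that inflammasomes mature, Nlrp1a, an inflammasome sensor, and Tmem173, which encodes STING. Like Ifi209, Nlrp1a was displayed by the study as repressed by GATA2, with accessibility from these same libraries, so its direction is not independent evidence. The Il18 site had a peak in 0 of 4 hi-77+/+ empty, 4 of 4 hi-77-/- empty, 0 of 4 GATA2 and 4 of 4 9aa-Ins libraries, and GATA2 lowered its score by 40.5 points (-40.5, limma adjusted p = 0.00239). GATA2 lowered Nlrp1a by 49.0 points (-49.0, adjusted p = 5.63e-04) and Tmem173 by 41.9 points (-41.9, adjusted p = 9.07e-04). All 3 were also called higher with the deletion and higher with 9aa-Ins than with GATA2. Irf7, an interferon regulatory factor, moved the other way, with -30.8 points for the deletion (adjusted p = 9.49e-05) and 24.3 points with GATA2 (adjusted p = 0.00151). Pycard, the adaptor that AIM2 binds, was lower with the deletion (-41.4 points, adjusted p = 0.00118) and not called with GATA2 (-4.14 points, adjusted p = 0.84). Cgas (17.4), Tlr9 (32.2) and Nlrp3 (29.2 points) were among the others higher with the deletion, and Irf9 (-6.54), Stat2 (-6.95) and Trex1 (-9.59 points) were the others lower. Casp1, Casp4 and Isg15 had no site, and Zbp1 and Il1b had sites in too few libraries to be tested.

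Promoter peaks of some lineage genes also differed between the groups. Of the monocyte markers, Csf1r had a promoter peak in 0 of 4 hi-77+/+ empty, 4 of 4 hi-77-/- empty, 0 of 4 GATA2 and 4 of 4 9aa-Ins libraries, Irf8 and Cx3cr1 in all 16 and Ly86 in none. Of the B lineage markers, Cd79a had a peak in 1, 4, 0 and 4 libraries in the same order, and Ebf1, Pax5 and Vpreb1 in all 16. Of the erythroid markers, Gata1 had a peak in 0, 1, 4 and 0 libraries and Hba-a1 in 1, 1, 0 and 0, while Klf1 and Epor had peaks in all 16. Of the mast cell markers, Cpa3 had a peak in 0, 0, 4 and 0 libraries, Mcpt8 in 2, 4, 3 and 4 and Cma1 in none. The part of a changed mixture of cells in the cluster's scores was not tested, and more cells with an open site and a more open site per cell cannot be told apart in bulk libraries.

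As a description, the mean rank score over the 45 cluster sites was compared across the 16 libraries with that of the sites nearest to each of 10235 other protein-coding genes with at least 3 sites within 100 kb of a start. The 5 most like were Ankdd1a (5 sites, Pearson r = 0.983), Arhgap31 (9 sites, 0.974), Plekha4 (3 sites, 0.973), Rhoq (9 sites, 0.97) and Peli2 (9 sites, 0.964), and 160 genes had an r of at least 0.9. The 16 libraries fall into the 4 groups, which sets these values, so they give no measure of a relation between genes. The mean scores of Ankdd1a were 17.5, 38.7, 18.8 and 40.7 in hi-77+/+ empty, hi-77-/- empty, GATA2 and 9aa-Ins libraries, against 14.7, 27.8, 15.5 and 30.8 over the cluster.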

How the data were processed

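ATAC-Seq peak lists of 16 libraries, 4 in each of 4 groups taken from the labels, were used. The authors trimmed reads (Trim Galore 0.4.1), aligned them to mm10 (Bowtie2 2.2.5), removed duplicates (Picard 2.26.0), kept unique reads, shifted read ends by +4 and -5 bp and used MACS2 to call the peaks of every library. Its version was not given in the sources used here. The deposited score is an integer derived from q, the deposited fold is a ratio to the background of the same library, and the deposited significance is -log10 p or -log10 q. The background is constant within a library, so values were used only as ranks. No read counts were used, and the depth is unknown.

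The 49000 most significant peaks of each library were kept (ties by fold, then position). Peaks were merged at 1 bp of overlap, rank scores were computed in Python 3.11.15, and sites with a peak in at least 4 libraries were tested with limma 3.58.1 (R 4.3.3, trend and robust), all 16 libraries in 1 fit, with Benjamini-Hochberg adjustment over all sites. The test was tried on simulated scores with normal noise of a common SD and shifts only at sites of middle score. These hold no change from a group that scored 0 in all its libraries, as hi-77+/+ empty did at sites 3, 10 and 27. The trial therefore does not cover such calls. The read-count test of the study could not be applied to peak lists. Uniqueness is the share of 31-base words found once in mm10, and copies were aligned with Biopython 1.88. Members, gene lists, motifs and tests were chosen with earlier results of these data known. Single values of some listed genes are not reported here. All 10 members were named, with each site within 1 kb of a member start, up to 12 other called sites of largest difference in full, the rest in brief, and the 5 genes of most like pattern. Sites 21, 22, 30, 34, 38, 44, 45 and 1 were given values after theirs were seen. Alternatives were the length of the lists, peak width, summit windows, 50% cover, the filter, presence, the exact permutation test, only 8 libraries, each library left out, the replicate number as a block and, added after seeing the data, shared ranks for ties and leaving out the 3 hi-77-/- libraries with a peak in the window around the -77 element.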

Additional observations from a re-analysis of the deposited data

Results flagged for a closer look

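Of 65 groups of 4 libraries at the sites given in full and in the counts of sites, 11 held a library whose gap to the next exceeded the limit for an outlier (Dixon's ratio, 95% level), where chance gives about 1 in 20. In hi-77+/+ empty this was replicate 1 at site 43 (rank score 6.5). In hi-77-/- empty it was replicate 3 at site 26 (31.5) and site 4 (31.5), replicate 2 at site 36 (4.3) and replicate 4 at site 43 (43.5). With GATA2 it was replicate 4 at site 24 (27), replicate 2 at site 12 (4.0) and at site 40 (17.8) and replicate 3 at site 3 (32.6). With 9aa-Ins it was replicate 2 at site 37 (19.3) and replicate 1 at site 4 (3.2). At 7 of the 11 the library named had the only kept peak of its group. There the ratio takes its largest value whatever the score, so these 7 flags were fixed in advance. The cause was not tested.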

How the results depend on the processing

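Directions did not turn in any alternative at the 32 called differences of sites given in full. Of these, 32 kept their call with peaks narrower than 1 kb, 28 with all deposited peaks, 28 with 200 bp windows on summits, 29 with the filter at 1 library, 27 with only the 8 libraries of a comparison, 31 with shared ranks for ties and 30 without the 3 hi-77-/- libraries with a peak in the -77 window. With 25000 peaks 21 kept it, 4 lost it and 7 had no testable site, and with 50% cover 24 kept it and 5 lost it. Leaving out 1 library in 256 fits ended 22 calls, at 5 of the 32. The exact permutation test, whose smallest p is 0.0286 with 4 against 4, gave 0 calls of cluster sites after adjustment. At an unadjusted p under 0.05 it gave 9 higher and 1 lower with the deletion, 9 lower with GATA2, 5 higher and 1 lower with 9aa-Ins than with empty vector and 17 higher with 9aa-Ins than with GATA2.

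Sites higher with the deletion (14) numbered 9 with all peaks, 9 with 25000 peaks and 3 by presence. Those lower (2) numbered 0 with 25000 peaks, 1 with only 8 libraries and 0 by presence. Sites lower with GATA2 (8) numbered 1 by presence. Sites higher with 9aa-Ins than with empty vector (3) numbered 9 with all peaks, 7 with narrow peaks, 1 with summit windows, 0 with the filter at 1 library, 1 without the 3 libraries with a peak in the -77 window and 1 by presence, and 1 to 4 with a library left out. Those lower (0) numbered 0 to 1 with a library left out. Sites higher with 9aa-Ins than with GATA2 (16) numbered 30 with all peaks and 6 by presence. Deviations of same-numbered libraries from their group means correlated between -0.0326 and 0.0919, under the limit of 0.1 for taking the numbers as pairs. Between 9aa-Ins and GATA2 they were all positive (0.0192 to 0.0919) and 3 of 4 libraries correlated best with their own number, a hint from the data and not the design. With the replicate block, 13 sites were higher and 2 lower with the deletion, 9 lower with GATA2, 0 higher with 9aa-Ins than with empty vector and 16 higher with 9aa-Ins than with GATA2.

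The mean number of cluster sites with a peak, in hi-77+/+ empty, hi-77-/- empty, GATA2 and 9aa-Ins libraries, was 25.5, 31.75, 17.75 and 45.75 with all peaks, 5.75, 13.5, 6.25 and 14.25 with 25000 peaks and 8.75, 20, 6.75 and 28.25 with 50% cover. It was 32 for 9aa-Ins with narrow peaks, and 24.5 for hi-77-/- empty and 29 for 9aa-Ins among sites in at least 4 libraries. Longer lists hold more weak peaks, and 26 of the 71 sites of the full lists lie outside the 45. Without read totals, a missing peak and a weak one are not told apart. The cause of these changes was not tested.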
